A study of Mus musculus with 24 samples.

Results

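BAPN was compared with plain drinking water in the aorta of ATAD3A knock-in mice, over all genes. The comparison holds 11 of the 24 libraries of the study, chosen by their labels: 6 knock-in libraries on BAPN (KI-BAPN) and 5 on water (KI). The other 13 libraries, 6 wild type on water (WT) and 7 wild type on BAPN (WT-BAPN), entered the same statistical fit and serve as a second comparison that shares no library with the first. All mice were males. Those on BAPN, β-aminopropionitrile, drank it at 0.5% (w/v) from the age of 3 weeks for 28 days, and the controls of both genotypes had regular water over the same time. Genotypes are labelled ATAD3A-KI and WT. The labels do not say which allele was knocked in, what drives it, or from how many founders or litters the animals came. Each library is listed as a separate sample, with nothing said of separate litters or days, so p-values measure the spread between these libraries.

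BAPN blocks lysyl oxidases, the copper enzymes that cross-link newly made collagen and elastin. In growing rodents this weakens the elastic wall of the aorta, and BAPN in the drinking water of young mice is a standard model of aortic aneurysm and dissection. The wall is mostly smooth muscle cells between elastic sheets, under an outer adventitia with fibroblasts, macrophages, small vessels and sympathetic nerve fibres. ATAD3A is an ATPase of the mitochondrial inner membrane, found at contacts between the membranes and at nucleoids.

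The labels were first checked against the gene they name. Atad3a (ENSMUSG00000029036) stood at 802, 617, 1009.9, 1337.6 and 1628.8 CPM (counts scaled by library size) in KI replicates 1 to 5 and at 535, 501, 231, 1038.4, 645 and 575 CPM in KI-BAPN replicates 1 to 6, while the WT and WT-BAPN libraries lay between 24.9 and 61.4 CPM. Every knock-in library was thus above every wild type library. Within the knock-in the values on BAPN lay lower but overlapped those on water, with a log2 difference of -0.88 ± 0.29 (SE, edgeR adjusted p = 0.273). The 11 libraries held 17952806 to 26490651 counts, with 5.12 to 14.8% in mitochondrially encoded genes. The defining smooth muscle genes Acta2 and Myh11 were present in each, from 7078 to 35569 and from 2046 to 11873 CPM. Some libraries stood apart in markers of other tissue: KI replicates 1, 2 and 5 in sympathetic neuron genes, KI-BAPN replicates 2, 3 and 6 in mesothelium genes, and KI-BAPN replicates 3 and 6 in macrophage genes. In bulk tissue more cells of a type and more RNA per cell cannot be told apart.

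Between KI-BAPN and KI, 5 genes passed a Benjamini-Hochberg adjusted p of 0.05 in edgeR's quasi-likelihood test, out of 14216 tested (0.0352%). Ces2g rose, and Syn2, Rab3b, Omp and Slc18a2 fell, where both words stand for a call and not for a cause. Among the water libraries, the 4 that fell were highest in KI replicates 2 and 5. Without adjustment, 695 genes (4.89%) were higher and 741 (5.21%) lower at p under 0.05. In 68 genes (0.478%) all 6 KI-BAPN libraries lay above all 5 KI libraries, and in 24 (0.169%) all lay below. With groups this small some genes separate fully without any effect, and how many was not estimated. DESeq2 called 198 genes, 67 higher and 131 lower, with all 5 of these among them, and limma voom with quality weights called 0, with 1338 genes at unadjusted p under 0.05. The count under edgeR was 0 without the low-count filter, with a stricter filter, and from the 11 knock-in libraries alone. Leaving out single libraries gave 143 calls without KI replicate 4, 140 without KI replicate 3, 53 without WT replicate 5, 5 without KI replicate 1, 4 without WT replicate 2, 3 without WT-BAPN replicate 7, 1 without KI-BAPN replicate 2, and 0 without any 1 of the others.

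Ces2g (ENSMUSG00000031877), a carboxylesterase of the Ces2 family of ester-cleaving enzymes, was the gene that rose. Its values were 18.1, 13.5, 13.4, 17.3 and 10.3 CPM in KI replicates 1 to 5 and 24.0, 26.8, 23.7, 24.5, 25.2 and 34.3 CPM in KI-BAPN replicates 1 to 6. The 2 groups did not overlap, and the KI-BAPN libraries were close together apart from the highest, replicate 6. The means were 14.5 ± 3.20 CPM (SD, n = 5) and 26.4 ± 4.02 CPM (SD, n = 6), a log2 change of 0.87 ± 0.16 (SE) and a fold of 1.82 (edgeR adjusted p = 0.0375). In wild type, the water libraries lay between 18.9 and 30.3 CPM and the BAPN libraries between 20.5 and 31.7 CPM, with a log2 difference of 0.13 ± 0.14 (adjusted p = 0.607). Every KI library on water was below every WT library on water, and the KI-BAPN libraries were within or above the range of both wild type groups. The BAPN effects of the 2 genotypes differed at an unadjusted p of 0.00187, which is 0.280 after adjustment over all genes. In the deposited table Ces2g lies on chromosome 8 from 105688350 to 105696169, in coordinates that do not match the build the processing notes name, so that their build is open. Its relatives Ces2e and Ces2b reached at most 2.07 and 1.05 CPM in any of the 11 libraries. Ces2a, which did not pass the low-count filter, reached 4.22 CPM in KI replicate 2. The sources used here do not say how reads shared between such copies were counted. The call was lost (adjusted p of 0.0546 to 0.159) without KI replicate 2 or 5, without any 1 of the 6 KI-BAPN libraries, or without WT replicate 1, 3, 4 or 6 or WT-BAPN replicate 1, 2, 3, 4, 5 or 6, at log2 changes of 0.76 to 0.96 over all libraries left out.

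**Figure D1:**
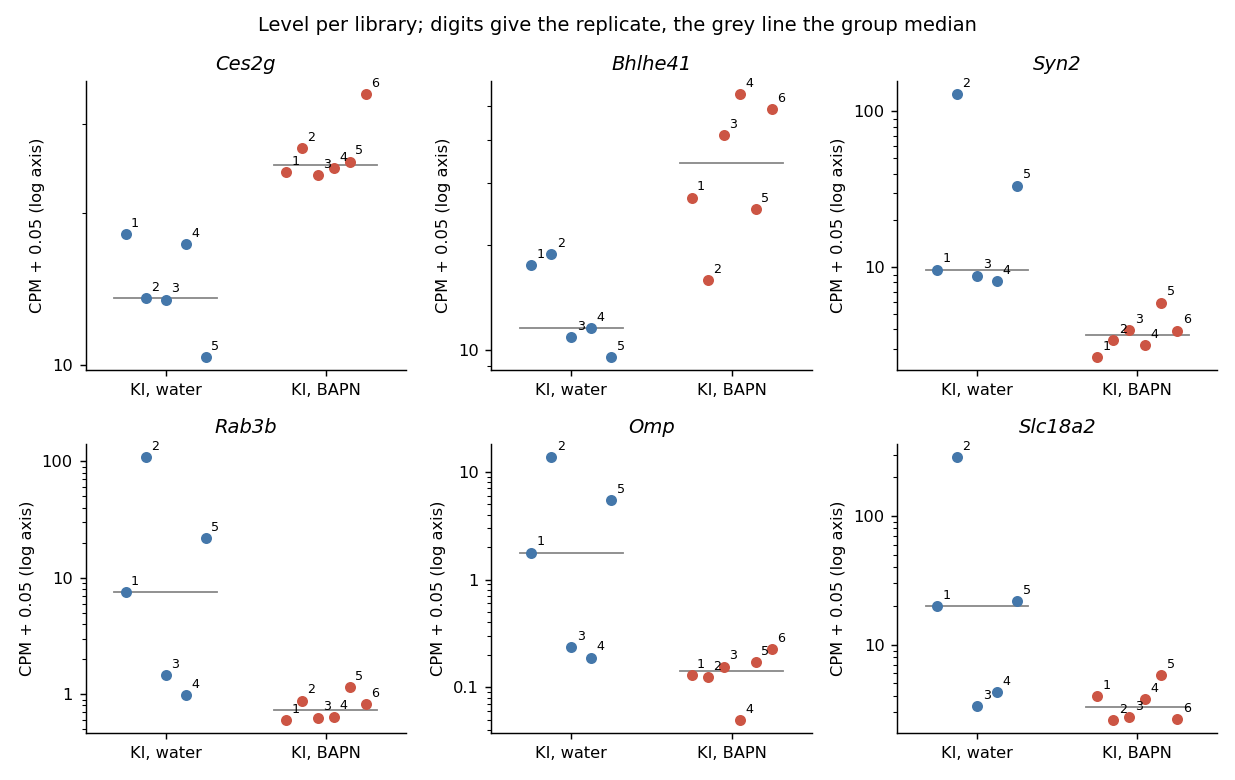
CPM + 0.05 on log axes for the 5 called genes and Bhlhe41, the next by p-value, with 1 point per library, the replicate number beside it and a grey line at the group median. Ces2g is at 10.3 to 18.1 CPM on water and 23.7 to 34.3 CPM on BAPN, while the 4 genes that fell are high in KI replicates 1, 2 and 5 or, for Syn2, mainly 2 and 5.

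The 4 genes that fell are known from neurons: Syn2 encodes synapsin 2 on synaptic vesicles, Rab3b a vesicle GTPase, Slc18a2 the vesicular monoamine transporter, and Omp the olfactory marker protein. Syn2 was at 9.63, 129, 8.80, 8.14 and 33.4 CPM in KI replicates 1 to 5 and between 2.61 and 5.90 CPM in KI-BAPN. Its groups did not overlap, and its log2 change was -3.32 ± 0.58 (SE). Its span in the table overlaps Timp4 and Gm17482. Rab3b was at 7.51, 109, 1.41, 0.925 and 21.7 CPM in KI and between 0.553 and 1.10 CPM in KI-BAPN, a log2 change of -5.25 ± 0.91. Slc18a2 was at 19.9, 288, 3.29, 4.26 and 21.9 CPM in KI and between 2.56 and 5.78 CPM in KI-BAPN, a log2 change of -4.25 ± 0.77. For Rab3b and Slc18a2, KI replicates 1, 2 and 5 were high and replicates 3 and 4 were within or next to the KI-BAPN range. Omp, whose span in the table overlaps Capn5, was at 1.73, 13.7, 0.188, 0.139 and 5.41 CPM in KI and at 0 to 0.177 CPM in KI-BAPN, with a log2 change of -5.41 ± 0.95. All 4 had an edgeR adjusted p of 0.0375.

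Most of the list of sympathetic neuron markers behaved like these genes. The list holds 3 of them, Syn2, Rab3b and Slc18a2, and was written with earlier results of these data known. It is therefore no separate support for them. Of 19 tested members these 3 fell and 17 were lower at unadjusted p under 0.05, against 5.21% of all genes. DESeq2 called 16 of the list. The median log2 difference was -5.25, against -0.03 over all genes. KI replicate 2 held the highest value of all 19, and in 17 of 19 KI replicates 1, 2 and 5 were each above every KI-BAPN library. In 17 of 19, KI replicates 3 and 4 were within or below the KI-BAPN range. The summed level of the list was 347, 4012.7, 104, 116 and 635 CPM in KI replicates 1 to 5 and 93.5 to 172 CPM in KI-BAPN. Th, tyrosine hydroxylase, the first enzyme of noradrenaline synthesis, was at 17.1, 238, 0, 0.0925 and 48.8 CPM in KI and at 0 to 2.13 CPM in KI-BAPN. Dbh, which makes noradrenaline from dopamine, was at 22.7, 334, 0, 0.0925 and 53.2 CPM in KI and at 0 to 1.76 CPM in KI-BAPN. Ddc, the decarboxylase of the same pathway, had a log2 difference of -5.16 ± 1.04 (edgeR adjusted p = 0.101). Phox2a, a defining transcription factor of these neurons, did not pass the low-count filter and was listed at 0 in every KI-BAPN library. Without KI replicates 1, 2 and 5, the log2 differences of Syn2, Rab3b, Omp and Slc18a2 were -1.16, -0.66, -0.76 and -0.09, with adjusted p of 0.457 to 0.930, and the list median was 1.90. Without KI replicate 2 alone they were -1.98, -3.41, -4.23 and -1.80, with adjusted p of 0.159 to 0.192. Without KI replicate 5 alone their adjusted p was 0.0655 to 0.0804. KI replicates 1, 2 and 5 stood apart in these very genes. The loss of the difference without all of them thus follows from that choice. In wild type the list median was -1.05.

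Beyond the calls, 49 of the genes with no overlap were higher on BAPN with a mean of at least 5 CPM in the higher group. Those with the smallest p that are reported here were Ces2g, Gli3, Pcolce, Wfdc17, Pqlc3, Emp1, Ptgfrn, Srpx, Flrt2, Fndc1 and Pros1. Apart from Ces2g their edgeR adjusted p ran from 0.102 to 0.148, so none passed the threshold, while DESeq2 called all 11. Gli3, a transcription factor of the hedgehog pathway, was at 8.10, 7.07, 6.96, 6.71 and 4.80 CPM in KI and at 10.7, 9.04, 16.5, 10.1, 13.9 and 12.3 CPM in KI-BAPN. Its log2 difference was 0.85 ± 0.18 (edgeR adjusted p = 0.102). As for Ces2g, the KI water libraries were below every WT water library (12.0 to 15.4 CPM), and KI-BAPN lay on both sides of that range. WT-BAPN lay between 7.92 and 13.8 CPM, a log2 difference of -0.37 ± 0.16 in wild type, and the effects of the 2 genotypes differed at an unadjusted p of 4.40e-05 (adjusted p = 0.280).

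In both genotypes the groups of Hykk and Tbx2 did not overlap. They were chosen for this after their values were seen, though Tbx2 is also named by the rule below. Hykk, a hydroxylysine kinase, was at 3.05 to 5.23 CPM in KI and 5.44 to 9.55 CPM in KI-BAPN, with log2 differences of 0.61 ± 0.22 in the knock-in (adjusted p = 0.332) and 0.90 ± 0.20 in wild type, where it rose (adjusted p = 0.0186). Tbx2, a T-box transcription factor, was at 10.9 to 28.0 CPM in KI and 7.74 to 10.4 CPM in KI-BAPN, with log2 differences of -0.84 ± 0.28 (adjusted p = 0.280) and, in wild type, -1.06 ± 0.26, where it fell (adjusted p = 0.0232).

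Of the other genes, Pcolce, the enhancer of the enzyme that trims procollagen, was at 59.0, 88.6, 48.2, 113 and 35.2 CPM in KI and at 124, 150, 258, 134, 186 and 206 CPM in KI-BAPN, a log2 difference of 1.36 ± 0.31. Fndc1, a secreted protein with fibronectin domains, was at 5.13 to 21.3 CPM in KI and 23.2 to 110 CPM in KI-BAPN, a log2 difference of 2.14 ± 0.56. Srpx, a sushi-repeat protein, had a difference of 1.46 ± 0.38 and Flrt2, a leucine-rich adhesion protein, of 1.21 ± 0.31. Emp1, a membrane protein, had 1.47 ± 0.37, Ptgfrn, a partner of tetraspanins, 0.88 ± 0.23, Pqlc3 0.75 ± 0.19 and Pros1, the anticoagulant protein S, 0.49 ± 0.13. Wfdc17, a small secreted protein of activated macrophages, was at 0.698 to 2.45 CPM in KI and at 4.43, 7.91, 67.9, 3.11, 3.35 and 67.0 CPM in KI-BAPN. KI-BAPN replicates 3 and 6 stood far above the rest. The log2 difference of 4.11 ± 0.96 became 1.30 without KI-BAPN replicates 2, 3 and 6. In Pcolce, Srpx, Flrt2, Emp1 and Fndc1 KI-BAPN replicate 3 was also the highest library.

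On the lower side, 19 of the genes with no overlap had a mean of at least 5 CPM on water. The 12 with the smallest p were Syn2, Rab3a, Fra10ac1, Snx25, Rhob, Cdkl2, Agap3, Pcbp3, Pdzd2, Tbx2, Ccng2 and Tmem199. Apart from Syn2 their edgeR adjusted p ran from 0.116 to 0.312, and DESeq2 called 5 of the 12. Rab3a, a GTPase of secretory and synaptic vesicles, was at 36.6, 72.1, 53.4, 57.0 and 48.6 CPM in KI and at 32.8, 24.6, 11.9, 26.9, 33.0 and 24.2 CPM in KI-BAPN. Its log2 difference was -1.07 ± 0.25 and, unlike in Rab3b, KI replicates 3 and 4 were above every KI-BAPN library too. Rhob, a small GTPase of the actin cytoskeleton, was at 407, 367, 370, 529 and 501 CPM in KI and at 230, 245, 208, 354, 333 and 293 CPM in KI-BAPN, a difference of -0.65 ± 0.19. Agap3, a GTPase-activating protein for Arf, was at 71.5 to 83.8 CPM in KI, the tightest of these groups, and at 35.6 to 66.0 CPM in KI-BAPN, a difference of -0.52 ± 0.15. The remaining differences were -0.61 ± 0.16 for Fra10ac1, -0.52 ± 0.14 for the sorting nexin Snx25, -0.72 ± 0.21 for the kinase Cdkl2, -1.09 ± 0.34 for the RNA-binding protein Pcbp3, -0.72 ± 0.23 for Pdzd2, -0.66 ± 0.23 for the cyclin Ccng2 and -0.37 ± 0.13 for Tmem199. KI replicate 2, the library with the most neuronal RNA, was the highest for Rab3a, Snx25, Cdkl2 and Pcbp3, where Pcbp3 reached 79.3 CPM and at most 18.6 CPM elsewhere. Without KI replicate 2 the difference was -0.34 for Pcbp3 and -0.42 for Cdkl2, and without KI replicates 1, 2 and 5 it was -0.29 and -0.37. For Rab3a it was -0.93 without KI replicate 2.

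**Figure D2:**
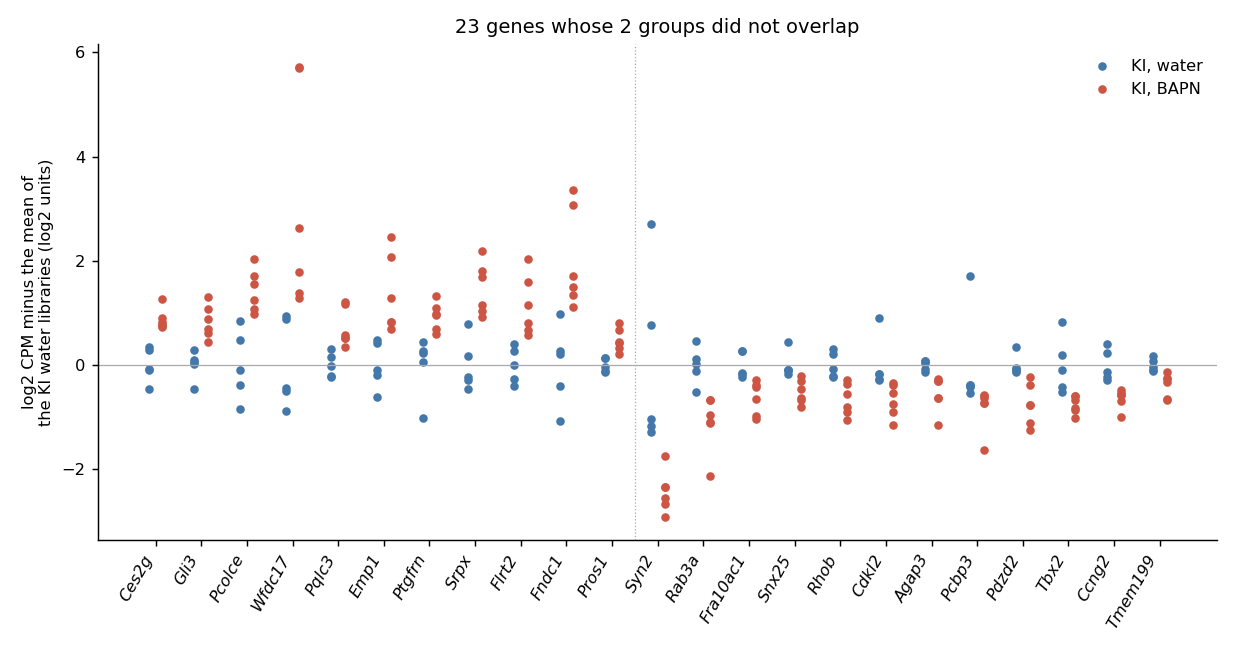
log2 CPM of each library minus the mean of the 5 KI water libraries for the 11 genes higher and the 12 lower on BAPN with no overlap, water in blue and BAPN in red. The groups of each gene are apart, by little for Pros1, Snx25 and Tmem199, and KI-BAPN replicates 3 and 6 lie together for Wfdc17, at 67.9 and 67.0 CPM.

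Genes of macrophages and inflammation were mostly higher on BAPN, in 2 libraries by far the most. Of 20 macrophage markers none was called in edgeR, while DESeq2 called 7, against 198 of all 14216 genes. In edgeR 16 of the 20 were higher at unadjusted p under 0.05, against 4.89% of all genes. Their median log2 difference was 2.06 in the knock-in and 0.23 in wild type. The complement gene C1qc was at 13.9, 26.8, 6.63, 29.9 and 17.8 CPM in KI and at 36.7, 58.7, 281, 32.9, 37.8 and 172 CPM in KI-BAPN, with no overlap. Its log2 difference was 2.44 ± 0.78 (edgeR adjusted p = 0.252). Pf4, a chemokine of platelets and resident macrophages, had a difference of 2.31 ± 0.65 (adjusted p = 0.181). F13a1, the coagulation factor of resident macrophages, had 1.80 ± 0.53, and the lipid-sensing receptor Trem2 had 3.12 ± 0.94. The summed level of the list was 246 to 556 CPM in KI, 2964.5 and 1975.4 CPM in KI-BAPN replicates 3 and 6, and 444 to 656 CPM in the other 4 KI-BAPN libraries. In 19 of 20 markers the highest KI-BAPN library was replicate 3 or 6. Over all genes tested, replicate 3 was the highest KI-BAPN library for 30.4% and replicate 6 for 14.6%. In 16 of 20 markers all 6 KI-BAPN libraries were above the median of KI. Without KI-BAPN replicate 3 the median was 1.61, and without replicates 2, 3 and 6 it was 0.59. Those libraries held the highest sums of this list, so a lower median without them follows from that choice.

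Of 26 tested cytokine, chemokine and adhesion genes 14 were higher and 1 lower at unadjusted p under 0.05, with a median of 1.40. None was called in edgeR, while DESeq2 called 2. The chemokine gene Cxcl12 stood at 156, 112, 68.7, 86.3 and 74.7 CPM in KI and at 179, 212, 322, 245, 133 and 359 CPM in KI-BAPN, so that its groups overlapped only through KI-BAPN replicate 5. Its log2 difference was 1.28 ± 0.32 (edgeR adjusted p = 0.136), and 0.94 ± 0.30 in wild type. Ccl8 had a difference of 4.07 ± 1.21 (adjusted p = 0.206), with 56.1 and 28.5 CPM in KI-BAPN replicates 3 and 6 and at most 4.29 CPM in the others. Ccl4 did not overlap, but stayed at or under 0.0463 CPM in KI and at 1.53 CPM at most in KI-BAPN. Nfkbia, the inhibitor of NF-kappaB that is itself induced by it, was the member lower at p under 0.05, with -1.04 ± 0.31 in the knock-in (adjusted p = 0.203) and -1.06 ± 0.28 in wild type, where it fell (adjusted p = 0.0319). Of 19 tested complement and antigen presentation genes 5 were higher at p under 0.05 and none lower, with a median of 1.11. In 23 of the 26 cytokine genes and in all 19 complement genes the highest KI-BAPN library was replicate 3 or 6. Over all genes tested it was replicate 3 for 30.4% and replicate 6 for 14.6%. Without KI-BAPN replicate 3 the medians were 0.78 and 0.50, and without replicates 2, 3 and 6 they were 0.45 and -0.01. Those libraries had the highest mean levels of both lists, so lower medians without them follow from that choice.

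KI-BAPN replicates 2, 3 and 6 were also the libraries with the most mesothelial RNA. The summed level of 12 mesothelium markers was 26.6 to 86.3 CPM in KI and 40.9, 115, 297, 26.4, 21.8 and 223 CPM in KI-BAPN replicates 1 to 6. None of the 12 was at p under 0.05, and their median of 1.85 became 0.94 without KI-BAPN replicate 3 and -2.93 without replicates 2, 3 and 6. Replicates 2, 3 and 6 stood apart in these very genes, so a lower median without them follows from that choice. Upk3b, a uroplakin of mesothelium, was at 27.1, 72.1 and 40.2 CPM in these 3 libraries, at most 0.730 CPM in the other KI-BAPN libraries and at 9.77 CPM at most in KI. Of 6 tested mast cell markers 4, and of 6 tested erythroid markers 5, were higher at unadjusted p under 0.05, with medians of 2.15 and 2.45, which became 0.57 and 0.62 without those 3 libraries. Hba-a1, a haemoglobin chain, was at 9.41 to 112 CPM in KI and at 46.6, 422, 1140.3, 291, 55.3 and 74.1 CPM in KI-BAPN. The mast cell sum was 4.23 to 50.2 CPM in KI and 18.7 to 124 CPM in KI-BAPN, and the erythroid sum 50.5 to 371 and 148 to 3741.8 CPM. The part of these cells in the inflammatory differences was not tested.

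**Figure D3:**
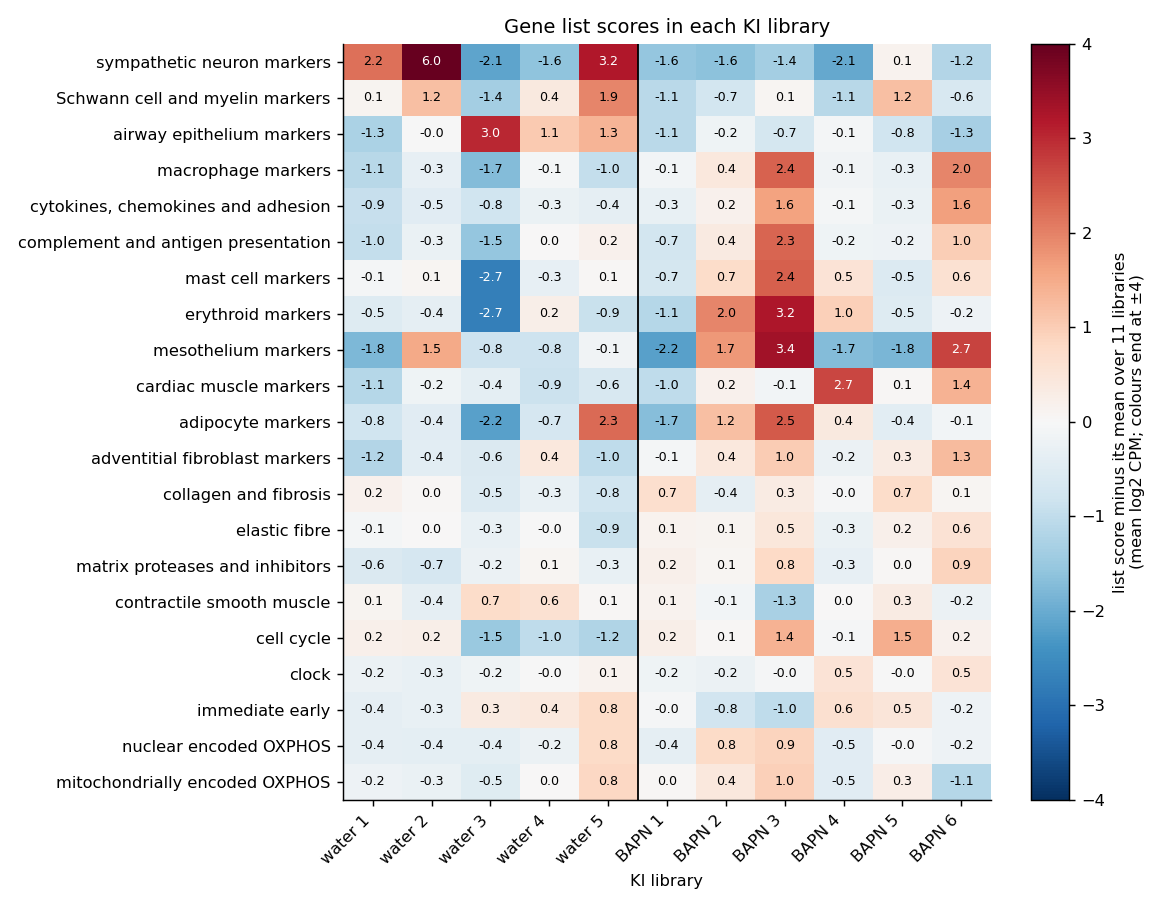
Score of each gene list, the mean log2 CPM of its tested genes with a prior count of 2, minus its mean over the 11 libraries, in 5 water and 6 BAPN libraries. The neuron list is high in water 1, 2 and 5, and the macrophage, cytokine, complement and mesothelium lists are high in BAPN 3 and 6.

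Of 14 adventitial fibroblast markers 7 were higher and none lower at unadjusted p under 0.05. None was called in edgeR, while DESeq2 called 1. The median log2 difference was 1.04 in the knock-in and -0.21 in wild type. Cd248, a sialomucin of fibroblasts, was at 34.5, 46.2, 30.6, 27.5 and 12.5 CPM in KI and at 52.1, 44.2, 114, 29.6, 60.0 and 84.8 CPM in KI-BAPN, a difference of 1.08 ± 0.31 (edgeR adjusted p = 0.181). Lum, the collagen-binding proteoglycan lumican, was at 21.2 to 134 CPM in KI and 99.6 to 617 CPM in KI-BAPN, a difference of 2.04 ± 0.68. Clec3b, which encodes tetranectin, had 1.55 ± 0.50 in the knock-in and -0.50 ± 0.44 in wild type. The summed level of the list was 2354.2 to 6178.4 CPM in KI and 3473.1 to 8201.9 CPM in KI-BAPN. In 13 of 14 markers the highest KI-BAPN library was replicate 3 or 6, where over all genes replicate 3 had 30.4% and replicate 6 14.6%. In 8 of 14 all 6 KI-BAPN libraries were above the median of KI. Without replicates 2, 3 and 6 the list median was 0.43. Those libraries held the highest KI-BAPN sums of this list, so a lower median without them follows from that choice.

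Genes of the matrix that BAPN leaves uncrosslinked had smaller differences, and edgeR called none of those tested in the knock-in. DESeq2 called some, among them 1 collagen and fibrosis gene and Emilin2. Of 26 collagen and fibrosis genes 6 were higher and none lower at unadjusted p under 0.05, with a median of 0.34 against 0.92 in wild type. Col1a1, a chain of the main fibrillar collagen, was at 1874.9, 1651.1, 904, 774 and 229 CPM in KI and at 3023.0, 853, 2085.7, 1261.8, 3685.2 and 1118.3 CPM in KI-BAPN. The groups overlapped widely, at a difference of 0.88 ± 0.46 (edgeR adjusted p = 0.524). Col3a1 had 0.70 ± 0.42. Col8a1, a short-chain collagen of injured arteries, had 3.46 ± 1.08 (adjusted p = 0.241), from 491 CPM in KI-BAPN replicate 3 and 54.5 CPM in replicate 6 against at most 17.6 CPM in the other libraries. Cthrc1, a secreted protein of injured arteries, had 2.78 ± 1.05 in the knock-in (adjusted p = 0.358) and 4.06 ± 1.04 in wild type, where it rose (adjusted p = 0.0274). Col12a1, a collagen that sits on fibrils, had 1.57 ± 0.54, with 58.5 CPM in KI-BAPN replicate 3. Without KI-BAPN replicate 3 the differences of Col8a1, Cthrc1 and Col12a1 were 1.24, 1.58 and 0.965, and without replicates 2, 3 and 6 they were 0.67, 0.906 and 0.419. Col1a1 and Col3a1 went the other way, to 1.29 and 1.03 without replicates 2, 3 and 6. The list median was then 0.65, and it was 0.66 without KI replicates 1, 2 and 5. Among the KI-BAPN libraries, replicate 5 was highest for 11 of the 26 genes, replicate 1 for 8 and replicate 3 for 7. Over all genes tested these libraries were highest for 15.2%, 12.0% and 30.4%.

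Eln, elastin, was at 15448.5, 11080.4, 6910.2, 3399.7 and 1429.7 CPM in KI and at 16631.9, 4267.8, 3580.0, 3681.8, 15778.7 and 5762.9 CPM in KI-BAPN. The range within each group was far wider than the difference between them, 0.11 ± 0.63 (edgeR adjusted p = 0.965), whose sign turned without KI replicate 4 (-0.07) or 5 (-0.15) or without KI-BAPN replicate 1 (-0.21) or 5 (-0.17). The difference in wild type was 1.86 ± 0.61 (adjusted p = 0.0654). Of 17 elastic fibre genes 4 were higher and 1 lower at p under 0.05, with a median of 0.41. Mfap2, a microfibril protein, had 0.94 ± 0.27 (adjusted p = 0.196) and Emilin2, a glycoprotein of elastic fibres, 2.05 ± 0.59 (adjusted p = 0.194). Fbln2, fibulin 2, had 1.06 ± 0.46 and Efemp1, fibulin 3, 1.70 ± 0.80. Fbln2 was at 0.69 without KI-BAPN replicate 6 and Efemp1 at 0.88 without KI-BAPN replicate 3, and without replicates 2, 3 and 6 they were at 0.125 and 0.051. Fbn1, fibrillin 1, was at 193 to 455 CPM in KI and 250 to 701 CPM in KI-BAPN, a difference of 0.41 ± 0.32.

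Of the targets of BAPN themselves none was called. Of 5 lysyl oxidases Loxl2 was higher at unadjusted p under 0.05, at 25.7 to 65.9 CPM in KI and 38.9 to 111 CPM in KI-BAPN, a difference of 0.75 ± 0.31 (edgeR adjusted p = 0.412). Lox was at 142 to 807 CPM in KI and 240 to 906 CPM in KI-BAPN, with 0.20 ± 0.45, which became -0.02 without KI replicate 5 and -0.11 without KI-BAPN replicate 5. Loxl1, needed for elastin renewal, had 0.31 ± 0.36, Loxl3 -0.17 ± 0.29 and Loxl4 0.57 ± 0.40. None of these 5 was called in wild type.

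Of 19 tested matrix proteases and inhibitors 8 were higher and none lower at unadjusted p under 0.05, with a median of 0.34. The median was 0.59 without KI replicate 3 and -0.01 without KI replicates 1, 2 and 5. Timp1, an inhibitor of metalloproteinases, did not overlap, at 6.85 to 16.7 CPM in KI and 34.2, 40.3, 127, 22.1, 45.9 and 211 CPM in KI-BAPN. Its log2 difference was 2.51 ± 0.87 in the knock-in (edgeR adjusted p = 0.303) and 2.91 ± 0.81 in wild type, where it rose (adjusted p = 0.0369). Its span overlaps Syn1. Ctsk, cathepsin K, which degrades collagen and elastin, was at 11.4 to 36.7 CPM in KI and 27.0 to 55.0 CPM in KI-BAPN, a difference of 0.95 ± 0.28 (adjusted p = 0.207). The aggrecanase Adamts5 had 0.85 ± 0.27 and the metalloproteinase Mmp19 1.33 ± 0.51. Mmp12, the elastase of macrophages, had 3.00 ± 1.34 (adjusted p = 0.456), at no more than 0.899 CPM in KI and 14.1 CPM in KI-BAPN.

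All 20 contractile smooth muscle genes had a negative difference, but only 2 were lower at unadjusted p under 0.05, against 5.21% of all genes, and none was called. The median was -0.34 in the knock-in and -0.43 in wild type. Mylk, the kinase of the myosin light chain, was at 1106.0, 967, 1478.6, 1312.8 and 872 CPM in KI and at 954, 542, 305, 863, 982 and 587 CPM in KI-BAPN, a difference of -0.70 ± 0.24 (edgeR adjusted p = 0.298). The tropomyosin Tpm1 had -0.57 ± 0.26, smooth muscle myosin Myh11 -0.49 ± 0.35 and smooth muscle actin Acta2 -0.45 ± 0.45. KI-BAPN replicate 3 was the lowest library in each of these 4, and without it the list median was -0.21. Tagln is printed with doubt, since it held only 14.6 to 29.4 CPM in the 11 libraries and its span overlaps Pcsk7. Of 20 genes of the TGF-beta pathway 1 was higher and 1 lower at p under 0.05, a share near that of all genes. They were the receptor Tgfbr2, at 0.37 ± 0.18, and Id1, a target of BMP signalling, at -1.02 ± 0.33 in the knock-in and -0.96 ± 0.30 in wild type, with adjusted p of 0.259 and 0.0586.

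Cell cycle genes, the group with the most calls for BAPN in wild type among the lists used here, had the same sign and smaller values in the knock-in. Of 24 genes 6 were higher and none lower at unadjusted p under 0.05, none was called, and 23 had a positive difference, with a median of 1.14. In wild type 16 of the 24 rose and the median was 2.49. Cdk1, the kinase that drives mitosis, was at 2.63, 2.85, 0.470, 1.02 and 1.13 CPM in KI and at 4.07, 3.81, 13.8, 2.76, 11.5 and 3.25 CPM in KI-BAPN. Its difference was 2.00 ± 0.75 (edgeR adjusted p = 0.357) against 2.94 ± 0.71 in wild type, and the effects of the genotypes differed at an unadjusted p of 0.339. Top2a, a topoisomerase of dividing cells, had 1.82 ± 0.78, the cyclin Ccnb1 2.10 ± 0.85 and the mitotic protein Birc5 1.61 ± 0.70. Among the KI-BAPN libraries, replicate 5 held the highest value of 16 of the 24 genes and replicate 3 of 7, against 15.2% and 30.4% of all genes. KI replicates 1 and 2 were the highest water libraries for Cdk1, Ccnb1, Top2a and Birc5, and without KI replicates 1, 2 and 5 the list median was 2.15. At an unadjusted p under 0.05 for the difference between genotypes stood 1 of the 24, against 14.8% of all genes.

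Circadian clock genes differed among the KI-BAPN libraries as well as between the groups. The clock is a feedback loop in which ARNTL with CLOCK or NPAS2 switches on the Per, Cry, Nr1d and Bhlhe40 and Bhlhe41 genes, whose products repress it, and the factors DBP, HLF and TEF pass the rhythm on. In most tissues, the aorta included, these mRNAs rise and fall over each day. Of 19 clock genes 5 were higher and 2 lower at unadjusted p under 0.05, against 4.89% and 5.21% of all genes, and the median was 0.34. None was called in edgeR, while DESeq2 called 3. Bhlhe41, a repressor of the loop and the gene next to the threshold over all genes, was at 17.4, 18.7, 10.8, 11.5 and 9.47 CPM in KI and at 27.2, 15.8, 41.1, 53.9, 25.2 and 48.9 CPM in KI-BAPN. Its difference was 1.38 ± 0.26 (edgeR adjusted p = 0.0609), and only KI-BAPN replicate 2 was within the range of KI. Dbp was at 20.3, 25.1, 28.9, 37.5 and 26.3 CPM in KI and at 58.7, 36.2, 77.8, 148, 34.1 and 226 CPM in KI-BAPN, a difference of 1.81 ± 0.47 (adjusted p = 0.136). Its span overlaps Sphk2. Per3 was at 15.5 to 24.5 CPM in KI and at 31.3, 24.7, 53.6, 100, 19.5 and 75.4 CPM in KI-BAPN, with 1.42 ± 0.40. Bhlhe40 had 1.36 ± 0.45.

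Among other members, named after their values were seen, some split the KI-BAPN libraries in the same way and some did not. Hlf was at no more than 19.9 CPM in KI and at 19.2, 23.3, 43.8, 45.1, 17.4 and 81.6 CPM in KI-BAPN, a difference of 1.21 ± 0.43 (edgeR adjusted p = 0.321). Ciart, a repressor of the loop, was at 1.56 to 4.97 CPM in KI and at 1.38, 1.02, 5.86, 8.73, 1.89 and 18.8 CPM in KI-BAPN. KI-BAPN replicate 3 was thus only a little above the range of KI. Arntl went the other way, at 24.1, 23.2, 44.0, 25.8 and 24.3 CPM in KI and at 21.8, 26.6, 6.60, 5.28, 22.6 and 10.2 CPM in KI-BAPN, a difference of -0.86 ± 0.37 (adjusted p = 0.444). KI-BAPN replicates 3, 4 and 6 thus held high Dbp, Hlf, Per3 and Ciart with low Arntl, and replicates 1, 2 and 5 were near the water libraries in Hlf and Arntl. Other repressors of the loop did not follow this split. Per2 was at 56.5, 29.7, 24.2, 164, 55.2 and 82.5 CPM in KI-BAPN replicates 1 to 6, lowest in replicate 3, and Nr1d1 was also lowest there, at 75.1 CPM against 88.0 to 242 CPM. Per1 was at 32.3 CPM in replicate 3, 111 CPM in replicate 4 and 190 CPM in replicate 6. The sources used here do not give the time of day at which tissue was taken, and its part in these values was not tested. In wild type the list median was -0.31, Hlf was at -0.87 and Dbp at -0.32 ± 0.41, and 10 of the 19 genes differed between genotypes at unadjusted p under 0.05, against 14.8% of all genes. Without KI replicates 1, 2 and 5 the list median was 0.01.

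The bases before the starts of 2 of these genes, from RefSeq on GRCm38.p6, are shown because clock genes are known for the E-box CACGTG, bound by ARNTL, and the D-box TTATGTAA, bound by DBP, HLF and TEF. Motif letters are in capitals, and the D-box was searched on both strands, while the E-box reads the same on both. The D-box was added after the sequence of Per3 had been seen.
Bhlhe41, chr6:145865559-145865670, minus strand: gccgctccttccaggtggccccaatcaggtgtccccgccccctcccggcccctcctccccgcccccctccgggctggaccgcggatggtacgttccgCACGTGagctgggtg
Per3, chr4:151044666-151044915, minus strand: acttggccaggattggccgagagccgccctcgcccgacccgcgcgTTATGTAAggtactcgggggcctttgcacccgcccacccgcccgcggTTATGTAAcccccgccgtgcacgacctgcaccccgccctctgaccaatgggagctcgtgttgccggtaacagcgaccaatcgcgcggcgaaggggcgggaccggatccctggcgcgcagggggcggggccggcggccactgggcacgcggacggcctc
The stretch of Bhlhe41 ends where the GENCODE M21 annotation starts the gene. In the 250 bases before the RefSeq start, the E-box was found in 1978 of 32851 windows (6.02%) and in 5 of the 16 clock genes with a window (Bhlhe41, Ciart, Cry1, Per1 and Tef). The D-box was found in 269 windows (0.819%) and in 1 clock gene, Per3, which held 2. Neither was found in the windows of Dbp or Hlf. These are matches of letters and not sites of binding.

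**Figure D4:**
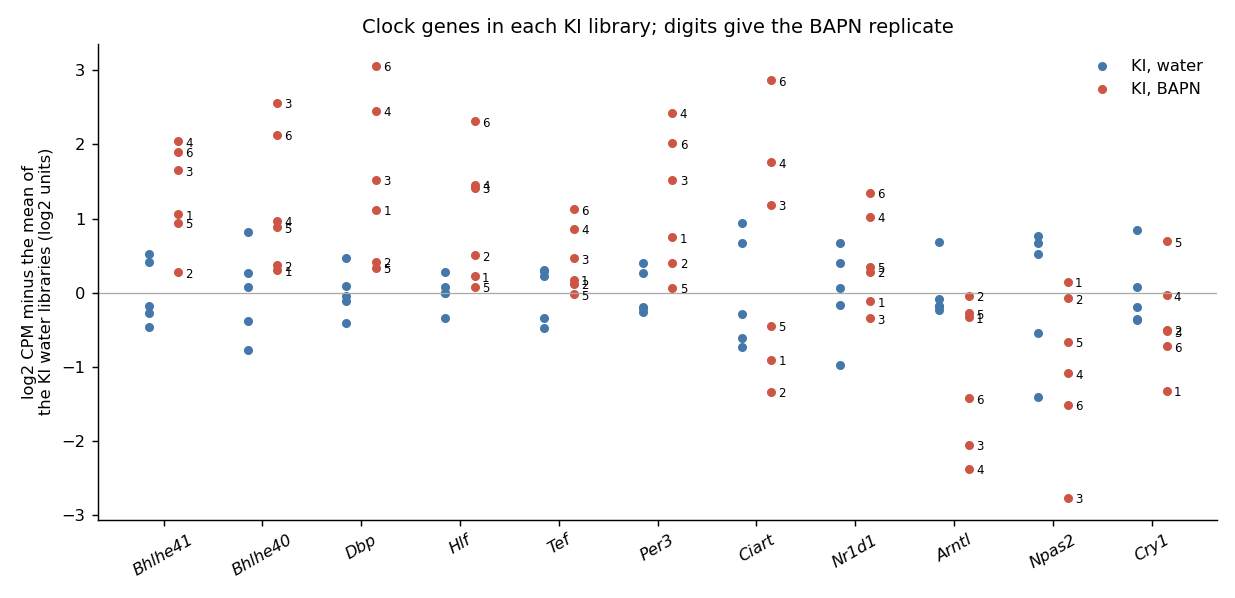
log2 CPM of 11 clock genes in each library minus the mean of the 5 KI water libraries, water in blue and BAPN in red with replicate numbers. KI-BAPN replicates 3, 4 and 6 are high in Dbp, Hlf, Per3 and Ciart and low in Arntl, where they are at 5.28 to 10.2 CPM against 21.8 to 44.0 CPM in the other 8 libraries.

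No mitochondrial gene group held more than 1 gene at unadjusted p under 0.05. Of 49 nuclear encoded genes of oxidative phosphorylation and 13 mitochondrially encoded ones, 0 were called and 0 were at unadjusted p under 0.05 in either direction in edgeR. In sign the nuclear list was uneven, with a positive difference in 47 genes and a negative one in 2. Of the mitochondrially encoded genes 8 were positive and 5 negative. The medians were 0.19 and 0.05 in the knock-in and -0.33 and -0.84 in wild type. Without KI-BAPN replicate 3 the knock-in medians were 0.02 and -0.15, and without KI replicate 5 they were 0.54 and 0.37. The nuclear median was 0.09 without KI-BAPN replicate 2, and the mitochondrially encoded one lay between -0.15 and 0.37 over all single libraries left out. The subunit gene Ndufs8 of complex I was at 61.0, 76.3, 62.2, 65.2 and 107 CPM in KI and at 73.8, 144, 171, 50.8, 95.4 and 79.2 CPM in KI-BAPN, a difference of 0.46 ± 0.26 that was -0.02 without KI-BAPN replicates 2, 3 and 6. The mitochondrial mRNA mt-Co2 ran from 391 to 1038.6 CPM in KI and from 222 to 1817.6 CPM in KI-BAPN, with 0.77 ± 0.52. KI replicate 5 and KI-BAPN replicates 2 and 3 were the highest for the nuclear list, and these 3 were also the highest for adipocyte markers, whose sums were 19888.7, 8219.6 and 28024.4 CPM against 1654.4 to 5301.5 CPM in the other 8 libraries. The part of fat in these values was not tested. Of 19 lipoylation genes and 18 of mitochondrial proteostasis 0 were at p under 0.05, with medians of 0.07 and -0.10. Of 26 genes of mitochondrial membranes, contacts and nucleoids 1 was lower, Atad3a itself, with a list median of -0.01. Lonp1, the main matrix protease, had -0.29 ± 0.16 and Polrmt, the mitochondrial RNA polymerase, -0.36 ± 0.18.

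Of 24 immediate early genes 2 were lower at unadjusted p under 0.05 and none higher, against 5.21% and 4.89% of all genes. The 2 were Btg2 at -0.97 ± 0.35 and Zfp36, which shortens the life of cytokine mRNAs, at -0.85 ± 0.32. The list median was -0.26 against -0.63 in wild type, where Zfp36 fell (edgeR adjusted p = 0.0447). Of 15 tested genes of the integrated stress response 1 was lower, a share near the 5.21% of all genes. It was the central factor Atf4, at 129 to 255 CPM in KI and 91.4 to 204 CPM in KI-BAPN (-0.57 ± 0.23). Of 28 lysosome genes 4 were higher and 2 lower at unadjusted p under 0.05, where all genes had 4.89% and 5.21%, with a list median of 0.11. The hexosaminidase Hexa had 0.65 ± 0.21 and the membrane protein Lamp2 0.44 ± 0.18, while the glucosidase Gaa had -0.46 ± 0.19. The proton pump subunit Atp6v1b2, at -0.82 ± 0.32, was highest in KI replicate 2, with 256 CPM, and ran from 48.6 to 127 CPM elsewhere. Its difference was 0.25 without KI replicates 1, 2 and 5. Of 25 autophagy genes 2 were lower, a share near the 5.21% of all genes, with a median of -0.10. They were the receptor Nbr1 at -0.31 ± 0.12 and Becn1 at -0.29 ± 0.13.

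Markers of tissue next to the aorta differed between libraries of either group. Of 11 tested airway epithelium markers 5 were lower at unadjusted p under 0.05, with a median of -2.67 against -9.07 in wild type, where 9 fell. Scgb1a1, the secretoglobin of club cells, was at 0.118, 1.13, 40.3, 8.33 and 8.42 CPM in KI and at 0.177 to 1.48 CPM in KI-BAPN, and the sum of the list was 2.87 to 229 CPM in KI and 3.36 to 35.8 CPM in KI-BAPN. Of 13 Schwann cell and myelin genes 2 were lower and 1 higher, where all genes had 5.21% and 4.89%. Their median of -1.32 became 0.12 without KI replicates 1, 2 and 5. Of 10 tested cardiac muscle genes 5 were higher, with a median of 1.32. The atrial light chain Myl7 was at 0.0436 to 1.13 CPM in KI and at 0.198, 7.27, 6.02, 54.2, 1.89 and 6.89 CPM in KI-BAPN, highest in replicate 4. Myl4, another atrial light chain, did not overlap, at 6.46 to 9.27 CPM in KI and 10.9 to 36.4 CPM in KI-BAPN (1.08 ± 0.35, edgeR adjusted p = 0.255). Of 16 adipocyte genes 3 were higher, with a median of 0.35 that became 1.91 without KI replicate 5 and -0.37 without KI-BAPN replicate 3.

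Set beside wild type, the knock-in had far fewer calls for the same treatment. Between BAPN and water, 873 genes were called in wild type (6.14%), 489 of them higher, and 5 in the knock-in. Of the 873, 588 (67.4%) had the same sign in the knock-in. These genes were chosen by their test in wild type, so their wild type values are no independent measure of size. The 489 that rose had a median log2 difference of 0.98 in wild type and 0.12 in the knock-in, and the 384 that fell had -0.999 and -0.16. Over all 14216 genes the median size of the log2 difference was 0.281 in wild type and 0.211 in the knock-in. Chosen the other way, of 436 genes at unadjusted p under 0.01 in the knock-in, 354 (81.2%) had the same sign in wild type. Of the 436, 174 were higher, 138 of them with the same sign in wild type, and 262 were lower, 216 of them with the same sign. Genes of 1 tissue, such as the neuron genes, vary together, so these are no independent counts. The share of the same sign over all genes was not computed. In the knock-in 63 of the 489 were higher and 0 lower at unadjusted p under 0.05, and 45 of the 384 were lower and 0 higher. None of the 5 genes called in the knock-in was called in wild type, and the log2 differences of Syn2, Rab3b, Omp and Slc18a2 there were -0.867, -0.997, -0.145 and 0.099. A difference between the effects in the 2 genotypes passed the threshold for 0 genes (0%), with a smallest adjusted p of 0.280 and 2111 genes (14.8%) at unadjusted p under 0.05, while DESeq2 called 14 and limma voom 4. Over all genes the log2 differences of the genotypes had a Pearson r of 0.292 and a Spearman rho of 0.111, where the points are genes measured in the same libraries and are no replicates. The groups differ in size, 5 against 6 in the knock-in and 6 against 7 in wild type, at median standard errors of 0.24 and 0.22 log2 units.

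**Figure D5:**
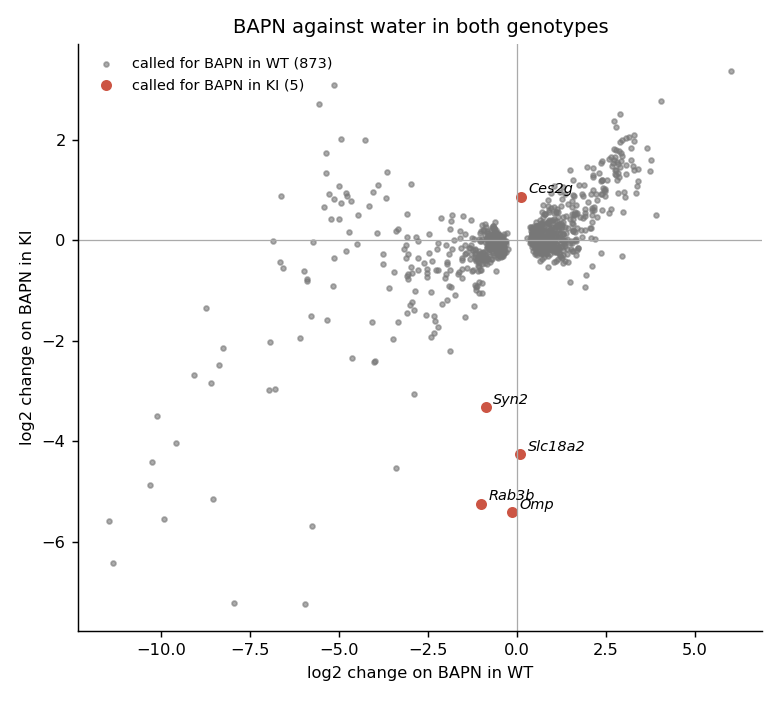
log2 difference on BAPN in the knock-in against that in wild type for the 873 genes called in wild type (grey) and the 5 called in the knock-in (red). The red points lie between -0.997 and 0.13 in wild type, and 588 of the 873 grey points have the same sign in both genotypes.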

How the data were processed

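Poly(A) RNA of aortas, from the ascending part to the abdominal bifurcation, was sequenced in 24 mice. The values used are raw read counts for each gene, deposited by the authors without normalization. As tools, the submitters' processing notes list Trim Galore, FastQC, HISAT2 and DESeq2, and as build GRCm38 (mm10). The sources used here do not name the counter, its strand setting or versions, so reads of overlapping genes cannot be told apart. Such overlaps are given here for only some of the named genes that have them. Each row named a gene, and every sample column was matched to its labels. No pair of libraries within KI or within KI-BAPN held the same counts, and other pairs were not compared.

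One mean per group was fitted to these deposited counts over all 24 libraries in edgeR 4.0.16 (R 4.3.3), with TMM factors, the filterByExpr filter and robust quasi-likelihood tests, for 14216 of 21959 genes. Adjustment was by Benjamini-Hochberg over all of these genes. CPM are scaled with TMM factors, and log2 differences are BAPN minus water with standard errors. "Higher" and "lower" at unadjusted p are descriptions and not calls. Alternatives were DESeq2 1.42.0, limma 3.58.1 voom, other filters and libraries left out. The scripts were tested on simulated data.

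Members, the 39 gene lists and the tests were chosen with earlier results of these data known. Named genes are the calls, Atad3a, the lysyl oxidases and main matrix and muscle genes. To these come, of genes with no overlap and a mean of 5 CPM in the higher group, the 12 higher and 12 lower with the smallest p, and up to 4 per list described. Some results are not reported here. The lists of T cell, B cell, neutrophil, endothelial, interferon, tricarboxylic acid cycle, fatty acid oxidation, smooth muscle and skeletal muscle genes had 0 members at unadjusted p under 0.05 in either direction, and chondrocyte and bone markers had 3 higher.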

Additional observations from a re-analysis of the deposited data

Results flagged for a closer look

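In 152 groups of 5 or 6 libraries the highest or lowest value was checked for a gap that is large against the range of its group (Dixon's limit), and 16 stood out. Chance marks about 1 in 20 groups. KI replicate 2 was alone at the top for Syn2 (129 CPM), Rab3b (109 CPM), Slc18a2 (288 CPM), Snx25 (23.6 CPM), Cdkl2 (28.1 CPM) and Pcbp3 (79.3 CPM). KI replicate 5 was alone at the top in the scores, as mean log2 CPM, of nuclear encoded oxidative phosphorylation (7.92), lipoylation (5.75), the tricarboxylic acid cycle (8.05) and fatty acid oxidation (7.06). KI replicate 3 had the lowest score of mast cell markers (-1.12) and the highest Pdzd2 (129 CPM). KI-BAPN replicate 3 had the lowest score of contractile genes (8.29) and the lowest Pcbp3 (7.81 CPM). KI-BAPN replicate 6 had the highest Ces2g (34.3 CPM) and Loxl4 (8.05 CPM).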

How the results depend on the processing

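The number of genes called for BAPN in the knock-in, 5, was 198 with DESeq2 and 0 with limma voom, without the low-count filter, with 1 CPM in 11 libraries, with only the groups compared, without KI replicates 1, 2 and 5, and without KI-BAPN replicates 2, 3 and 6. Without single libraries it ran from 0 to 143, and that in wild type (873) from 327 to 1609. Wild type calls were 1493 with DESeq2, 4227 with limma voom and 1831 at an adjusted p under 0.1, and interaction calls 14 with DESeq2 and 4 with limma voom. The share with the same sign in both genotypes, 67.4%, ran from 53.1 to 77.4% without single libraries and was 77.6% without KI replicates 1, 2 and 5, 71.8% without KI-BAPN replicates 2, 3 and 6 and 61.8% at an adjusted p under 0.1. The cause was not tested. Of 34 alternatives 7 kept all 5 calls, and none turned their sign.

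Same replicate numbers did not pair the libraries of KI and KI-BAPN (correlations of 0.404, -0.112, -0.492, -0.0437 and -0.114, and 1 of 5 matched its own number best). With the replicate number as a block 0 genes were called and the shared sign was 56.2%.

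Signs turned in 25 of 5315 values of 157 named genes, none of them called. Without single libraries Eln ran from -0.211 to 0.539, Lox from -0.107 to 0.601 and Per2 from -0.523 to 0.120, and Ciart was at -0.011 with limma voom. Without KI replicates 1, 2 and 5, Clpx was at 0.035, Atp6v1b2 at 0.25, Ddc at 1.10, Th at 2.84 and Dbh at 2.54. Without KI-BAPN replicates 2, 3 and 6, Loxl3 was at 0.046, Per2 at 0.366, Ndufs8 at -0.017, Bola3 at -0.05, Mcat at -0.20, Upk1b at -3.33, Gpm6a at -0.54, Upk3b at -2.81 and Lrrn4 at -2.67.

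With 5 and 6 libraries, genes under about 1 CPM, such as Omp and Ccl4 on BAPN, rest on few reads per library.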
